A study of Canis lupus familiaris with 51 samples.

Results

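The cyclins described here belong to the G1, S and M phases of the cell cycle, most of them as regulatory subunits whose rise and fall drive these phases. They were followed across 51 canine cutaneous mast cell tumors (MCTs). Members were all probes named in the scanner output for CCNA2, CCNB1, CCNB2, CCNB3, CCND1, CCND2, CCND3, CCNE1, CCNE2 or CCNF. Of these 10 cyclins 9 had a probe, out of 11461 gene symbols on the array, and they were represented by 13 probes. No probe carried the name of CCNB1, so the main B cyclin of mitosis was not analysed here. CCNB2, CCND3 and CCNE1 had more than 1 probe. A gene was represented by its brightest probe, called probe 1.

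RNA from each tumor, a piece of a spontaneous skin tumor of a client-owned dog, was hybridized with a single dye to its own Agilent canine array. The GEO labels give no differentiation class, so the classes are those of the study, matched by tumor name. Reference samples were picked by the study on histological grade and mitotic index, and those compared here were 4 undifferentiated MCTs (T9.1, T57.1, T73 and T90, from 2 male and 2 female dogs of 9 to 13 years, median 11) and 13 differentiated MCTs (5 male, 8 female, 3 to 13 years, median 7). The unknown samples were sorted by the study from these same arrays into 7 undifferentiated MCTs (4 male, 2 female, 1 of unstated sex, 6 to 14 years, median 9.5) and 26 differentiated MCTs (7 male, 18 female, 1 of unstated sex, 4 to 13 years, median 8), and they are called predicted samples below. The remaining tumor, LM0, from a male dog of 5 years, matched no name with a class and entered no comparison. The study names a further undifferentiated reference sample whose name matched no label. By elimination LM0 could be that sample, but the labels do not say so, and the comparisons were made without it. No treatment, genotype or shared agent is given in the labels, and breeds were mixed, with 14 crossbred dogs among the 51. Breeds were not balanced between the groups. Crossbred dogs were 2 of 4 undifferentiated and 2 of 13 differentiated reference samples, and 1 of 7 and 9 of 26 predicted ones. Boxers were 0, 4, 2 and 3 in the same groups, and Labrador retrievers were 1, 1, 1 and 6. Since mitotic index served to pick the reference samples and CCNB2 was in the gene panel that sorted the unknown samples, a higher level of a mitotic cyclin in undifferentiated MCTs is partly built into both classes, and the counts in the predicted samples are not independent evidence.

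The cyclins described here, cyclin F apart, act by binding a cyclin-dependent kinase (CDK). The D cyclins pair with CDK4 and CDK6 in response to growth signals and start the inactivation of RB in G1. The E cyclins pair with CDK2 at the entry into S phase, cyclin A2 pairs with CDK2 and CDK1 in S and G2, and the B cyclins pair with CDK1 and drive mitosis. Cyclin F is the substrate receptor of a ubiquitin ligase that acts mainly in G2. For short, cyclin A2, the B cyclins and cyclin F are called mitotic cyclins here. RNA of the E, A and B cyclins and of cyclin F rises and falls within each cycle, whereas RNA of the D cyclins follows outside signals and differs between cell types.

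The probes were 60 bases long, and the cyclins are related genes, so their probes were compared with each other. The longest run of bases that a probe shared with a probe of another cyclin was between 6 and 8 bases. The probes were not compared with the whole transcripts of the other cyclins, so binding to those was not examined. The following 6 probes are shown because they stand for both sides of the comparison, the cyclins that differed between the classes and the D cyclins, and their capitals mark that longest shared run.
CCNB2 probe 2: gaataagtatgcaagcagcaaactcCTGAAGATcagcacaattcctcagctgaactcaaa
CCNB2 probe 3: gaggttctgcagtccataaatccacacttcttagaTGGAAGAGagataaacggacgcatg
CCNE2: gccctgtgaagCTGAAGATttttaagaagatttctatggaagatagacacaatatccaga
CCND1: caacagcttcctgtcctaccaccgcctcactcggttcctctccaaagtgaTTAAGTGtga
CCND2: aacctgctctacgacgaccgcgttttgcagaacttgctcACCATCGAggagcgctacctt
CCND3 probe 2: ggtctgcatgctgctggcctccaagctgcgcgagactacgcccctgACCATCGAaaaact
The run in capitals was the same in CCND2 and CCND3 probe 2, and it was also the same in CCNB2 probe 2 and CCNE2. According to the scanner output, whose genome build is not named, CCNB2 probe 2 lies at chr30:27055372-27055431 on the plus strand. CCNB2 probe 3 covers chr30:27046617-27046960 on the plus strand, a stretch longer than the probe. CCNE2 lies at chr29:42519286-42519345, CCND1 at chr18:51531053-51531112, CCND2 at chr27:43622535-43622594 and CCND3 probe 2 at chr12:13603519-13603578, all on the minus strand. Exons could not be assigned, since no annotation of that build was used here.

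Levels are log2 values of the background-subtracted signal after quantile normalization over the 51 arrays, so a step of 1 is a factor of 2 in brightness. Levels of different probes are not set against each other. Between 59.4% and 74.82% of the spots of an array were well above background. All 13 probes were well above background on every undifferentiated array, and CCNF was so on 23 of the 39 differentiated arrays, fewer than any other cyclin. Of the 8 mast cell markers measured, 7 were well above background on all 51 arrays, among them KIT, the receptor of stem cell factor. In whole pieces of tumor, fewer cells of a type and less RNA per cell cannot be told apart.

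The mitotic cyclins were higher in undifferentiated than in differentiated reference MCTs. CCNA2 was at 9.47 (T90), 9.53 (T73), 10.22 (T57.1) and 10.30 (T9.1) in the undifferentiated tumors and between 5.01 and 8.35 in the differentiated ones, with a median of 6.83. All 4 undifferentiated tumors lay above all 13 differentiated ones. The share of all array probes that parted the reference groups in this way is not given here. A lack of overlap is therefore a description, for CCNA2 and for the cyclins below. The difference was 3.17 on the log2 scale, a fold of 9.03 (SE 0.494 on the log2 scale, limma adjusted p = 0.00161, n = 4 and 13). CCNB2, which with CDK1 drives the reorganization of the dividing cell, was at 10.79 (T73), 10.97 (T9.1), 11.49 (T57.1) and 11.64 (T90) against 6.18 to 10.09, median 8.53, for probe 1. Here too the groups did not overlap, with a log2 fold change of 2.93 (SE 0.513, limma adjusted p = 0.00352). The other CCNB2 probes gave 3.18 (SE 0.60) and 3.08 (SE 0.561), and both were called. The call of CCNB2 probe 1 was lost without T9.1 (log2 fold change 3.02, limma adjusted p = 0.0114), without T90 (2.79, adjusted p = 0.0141) and in the authors' normalized table (2.86, adjusted p = 0.0168), at folds of about the same size.

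CCNB3, best known from meiosis in germ cells, behaved as the other mitotic cyclins did. Its level was 8.27 (T73), 8.31 (T57.1), 8.32 (T90) and 8.85 (T9.1) in the undifferentiated reference tumors and 4.45 to 6.38, median 5.38, in the differentiated ones. The lowest undifferentiated tumor lay 1.89 above the highest differentiated one, the widest gap among the 13 probes. The log2 fold change was 3.06 (SE 0.285, limma adjusted p = 4.3e-05), and 6 of the 43603 probes on the array had a smaller p. CCNF did not pass. It was at 4.86 (T9.1), 5.40 (T73), 5.57 (T90) and 7.12 (T57.1) against 2.75 to 5.37, median 4.57, so the groups overlapped, with a log2 fold change of 1.58 (SE 0.477, limma adjusted p = 0.0618).

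The E cyclins were also higher. CCNE1 probe 1 was at 8.87 (T57.1), 9.097 (T73), 9.12 (T90) and 9.47 (T9.1) in the undifferentiated reference tumors and at 6.81 to 8.37, median 7.85, in the differentiated ones, with no overlap. Its log2 fold change was 1.41 (SE 0.258, limma adjusted p = 0.00465), and CCNE1 probe 2 gave 1.76 (SE 0.341, limma adjusted p = 0.00677). The call of CCNE1 probe 1 was lost without T9.1 (log2 fold change 1.30, limma adjusted p = 0.0207). It was also lost without T73 (1.42, adjusted p = 0.0154) and without T90 (1.42, adjusted p = 0.0141). CCNE2 was at 7.37 (T57.1), 7.65 (T73), 8.07 (T90) and 9.56 (T9.1) against 4.75 to 7.51, median 6.01. A single differentiated tumor lay above the lowest undifferentiated one. The log2 fold change of CCNE2 was 2.20 (SE 0.433, limma adjusted p = 0.00727), and without T9.1 it was 1.73 with an adjusted p of 0.033.

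None of the D cyclins passed the test. CCND1 was at 10.67 (T57.1), 11.45 (T9.1), 11.70 (T90) and 12.25 (T73) in the undifferentiated reference tumors and at 10.62 to 12.71, median 11.82, in the differentiated ones. The undifferentiated tumors were spread over nearly the whole range of the differentiated ones. The log2 fold change was -0.23 (95% interval -0.87 to 0.42, limma adjusted p = 0.722). CCND2 was at 9.71 (T57.1), 11.08 (T9.1), 11.74 (T73) and 11.85 (T90) against 10.62 to 12.63, and T57.1 lay below all 13 differentiated tumors. Its log2 fold change was -0.27 (95% interval -1.05 to 0.52, limma adjusted p = 0.731). CCND3 probe 1 was at 10.01 (T9.1), 10.23 (T90), 11.15 (T73) and 11.33 (T57.1) against 9.73 to 10.94, so that 2 tumors lay above all differentiated ones and 2 lay among them. Its log2 fold change was 0.38 (95% interval -0.13 to 0.88, limma adjusted p = 0.40), and 0.27 with probe 2. For CCND2 the interval reached past a fold of 2 on the lower side, so that a change of that size was not excluded at this number of tumors.

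**Figure D1:**
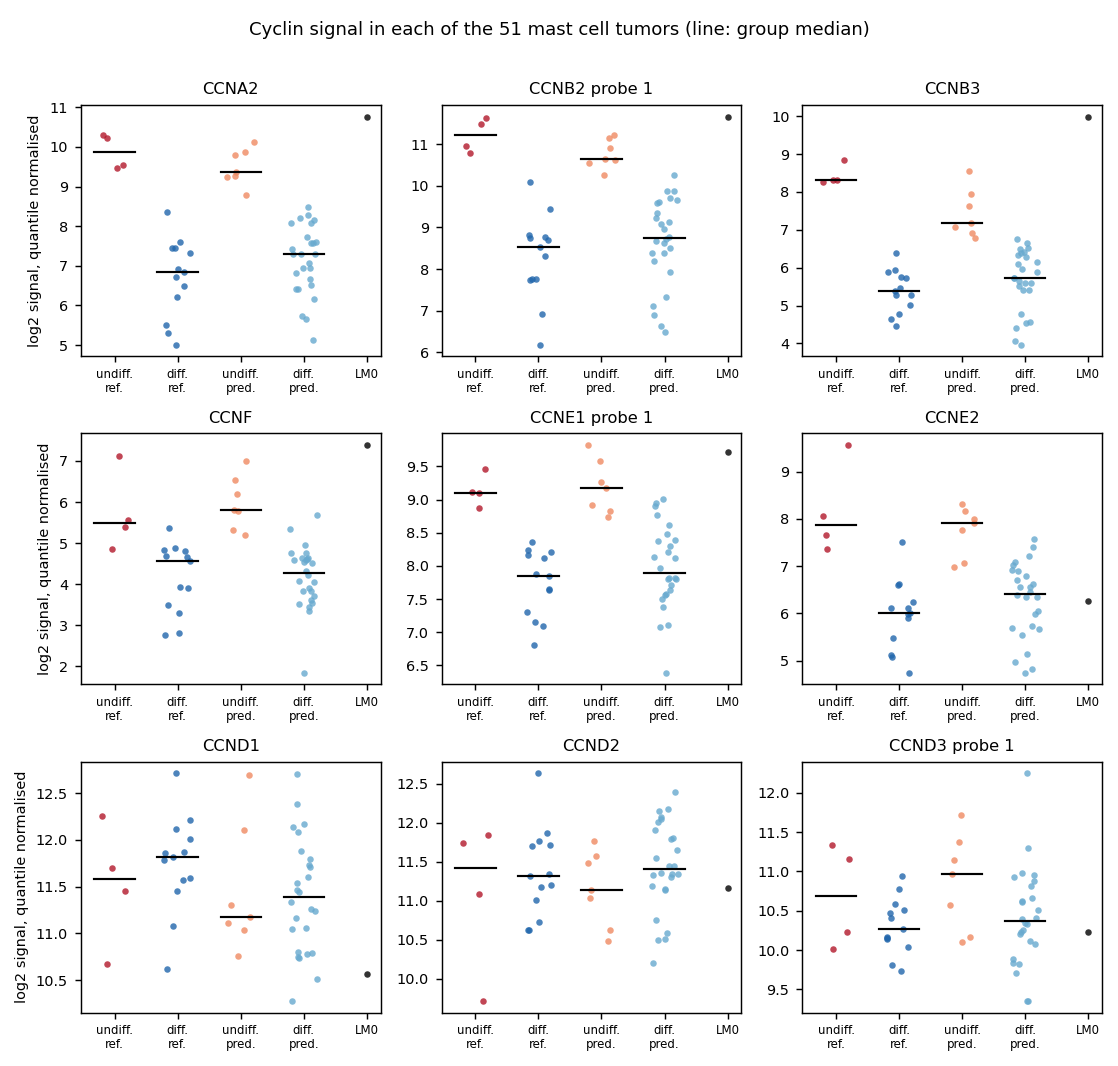
Level of each cyclin (log2 signal after quantile normalization, brightest probe, y axis) in each of the 51 tumors, by group on the x axis (undiff., undifferentiated; diff., differentiated; ref., reference; pred., predicted; LM0, the tumor without a class), with a line at the median of each group. The 4 undifferentiated reference tumors lie above the 13 differentiated ones for CCNA2, CCNB2, CCNB3 and CCNE1, while the groups overlap for CCNE2, CCNF and the 3 D cyclins.

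In all, 8 of the 13 cyclin probes were called higher in undifferentiated reference MCTs (a fold of 2 or more with an adjusted p below 0.01), which stand for CCNA2, CCNB2, CCNB3, CCNE1 and CCNE2, and 0 were called lower. Over the whole array 0.738% of probes were called higher. The call of CCNA2 and of CCNB3 was kept without each of the 4 undifferentiated tumors. The number of called cyclin probes fell to 2 without T9.1 or without T90, to 3 without T73 and to 6 without T57.1, while the log2 fold changes of the 5 called genes stayed above 1.

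The difference between D cyclins and the other cyclins was tested itself. For each of the 6 other cyclins and each of the 3 D cyclins, the level of the D cyclin was subtracted within each tumor, and the classes were compared by an exact two-sided permutation test over the 2380 splits of the 17 reference tumors. All 18 differences were above 0, between 1.03 for CCNE1 against CCND3 (exact p = 0.0168) and 3.44 for CCNA2 against CCND2 (exact p = 0.00042, the smallest this test can give). For CCNB2 against CCND1 the difference was 3.15 (SE 0.566, n = 4 and 13, exact p = 0.00042). CCNF, which did not pass on its own, differed from CCND1 by 1.81 (exact p = 0.00546), from CCND2 by 1.85 (exact p = 0.0151) and from CCND3 by 1.21 (exact p = 0.0126). These p-values are unadjusted over the 18 differences, and the test was added after the levels had been seen. The test was not run with normexp background correction, which shrinks the folds of dim probes. With that correction the log2 fold change of CCNF in the reference samples was 0.44. Those of CCND1, CCND2 and CCND3 were -0.21, -0.30 and 0.40. CCNF was thus not shown to part from CCND3 under that correction.

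Among the predicted samples, whose classes were drawn from these same arrays, the D cyclins and the other cyclins parted in the same way. CCNA2 lay between 8.78 and 10.12, median 9.37, in the 7 undifferentiated tumors and between 5.14 and 8.49, median 7.30, in the 26 differentiated ones, with a log2 fold change of 2.36 (SE 0.337, limma adjusted p = 6.06e-05). CCNB3 lay between 6.78 and 8.55, median 7.18, against 3.97 to 6.76, median 5.73, with a log2 fold change of 1.79 (SE 0.325, limma adjusted p = 0.000801). This call was lost with scan session as a fixed block (log2 fold change 1.80, adjusted p = 0.0131). For both genes the groups were apart, for CCNB3 by 0.03 only. The share of all array probes that parted the predicted groups is not given here, so this too is a description. CCNF passed here, at 5.20 to 7.00, median 5.81, against 1.84 to 5.67, median 4.28, with a log2 fold change of 1.79 (SE 0.309, limma adjusted p = 0.000439). CCNB2 had a place in the panel that made these classes, so its values are given without a test: 10.27 to 11.24, median 10.65, against 6.48 to 10.27, median 8.74.

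Of the E cyclins, CCNE1 probe 1 lay between 8.73 and 9.83, median 9.17, against 6.39 to 9.01, median 7.89, in the predicted samples, with 4 of 26 differentiated tumors above the lowest undifferentiated one. Its log2 fold change was 1.21 (SE 0.249, limma adjusted p = 0.00285). CCNE1 probe 2 gave 1.15 and just missed the threshold (SE 0.281, limma adjusted p = 0.0116). CCNE2 lay between 6.99 and 8.30, median 7.91, against 4.74 to 7.57, median 6.42, with a log2 fold change of 1.46 (SE 0.311, limma adjusted p = 0.00377). With sex as a covariate the calls of CCNE1 probe 1 (limma adjusted p = 0.0192) and CCNE2 (adjusted p = 0.0256) were lost. That of CCNE2 was also lost in the authors' normalized table (adjusted p = 0.0159). With normexp background correction, which adds 50 to each intensity, the log2 fold changes were 0.54 for CCNF, 0.82 for CCNB3, 0.91 for CCNE1 and 0.77 for CCNE2, so these 4 genes fell under a fold of 2 and were not called, at limma adjusted p-values of 8.56e-06 to 0.00173. So 5 of the 10 cyclin probes other than those of CCNB2 were called, all higher in undifferentiated MCTs, beside 0.741% of the array called higher.

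For the D cyclins of the predicted samples, 0 of 7 undifferentiated tumors lay above all 26 differentiated ones. CCND1 lay between 10.76 and 12.69, median 11.18, against 10.28 to 12.70, median 11.39, and its log2 fold change was 0.06 (95% interval -0.47 to 0.59, limma adjusted p = 0.934). The value for CCND2 was -0.27 (95% interval -0.75 to 0.21, limma adjusted p = 0.607), and that for CCND3 probe 1 was 0.45 (95% interval -0.08 to 0.97, limma adjusted p = 0.364). All 15 differences between another cyclin, CCNB2 left out, and a D cyclin were above 0. They ran from 0.77 (CCNE1 against CCND3, exact p = 0.0344) to 2.63 (CCNA2 against CCND2, exact p = 2.34e-07). The latter is the smallest p that the 4272048 splits can give, and all are unadjusted. The classes came from a panel with CCNB2, and CCNA2 ran with CCNB2 at r = 0.94 over the 39 differentiated tumors. Leaving out CCNB2 alone does not free the test from the panel, so these p-values are no evidence for the contrast. With normexp correction, where the test was not run, CCNF had 0.54 and CCND3 0.40.

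**Figure D2:**
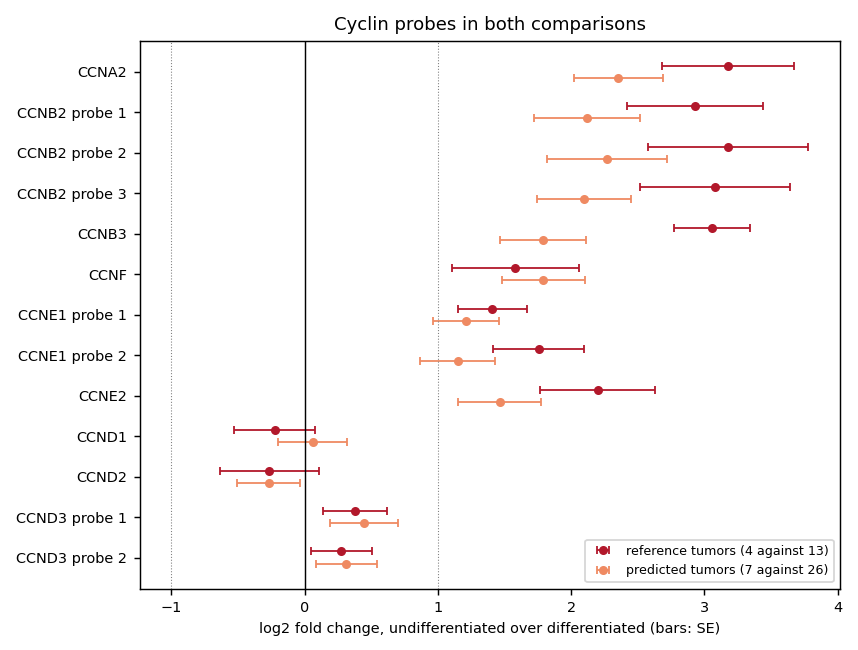
Log2 fold change of the 13 cyclin probes, undifferentiated over differentiated (x axis), with bars of 1 SE, for the reference samples (4 against 13) and the predicted samples (7 against 26); dotted lines mark a fold of 2. The probes of CCNA2, CCNB2, CCNB3, CCNF, CCNE1 and CCNE2 lie to the right of a fold of 2 in both comparisons and those of the D cyclins lie within it.

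The fold changes of the reference samples were not shown to differ from those of the predicted samples. In limma with the 4 groups and 50 arrays, 0 of the 13 cyclin probes were called for this difference, beside 0.00917% of the array. The largest difference was that of CCNB3, by 1.27 on the log2 scale (95% interval 0.27 to 2.27, unadjusted p = 0.0135, limma adjusted p = 0.269), and it was the only one of the 13 probes with an unadjusted p under 0.05. Over all 50 tumors with a class, the 11 undifferentiated tumors lay above the 39 differentiated ones for CCNA2, for CCNB2 probe 1 and for CCNB3, that is for 3 of the 13 probes, beside 0.125% of the 43312 probes measured on all of these arrays. The classes were in part drawn from these levels. The margin was 0.29 for CCNA2, 0.03 for CCNB3 and under 0.01 for CCNB2 probe 1.

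Between female and male dogs the cyclins were not shown to differ. In the 38 differentiated tumors with a stated sex, 0 of the 13 cyclin probes were called in limma and 0 had an unadjusted p under 0.05, beside 0.0275% of the array called. The female minus male difference was -0.38 for CCNA2 (95% interval -1.01 to 0.25), -0.26 for CCNB2 probe 1 (95% interval -0.997 to 0.47) and 0.02 for CCND1 (95% interval -0.39 to 0.44).

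The differentiated MCTs were far from uniform in their mitotic cyclins. Over the 39 tumors CCNA2 ranged over 3.48 log2 units (SD 0.923), CCNB2 probe 1 over 4.09 (SD 1.05), CCNB3 over 2.79 (SD 0.742) and CCNF over 3.83 (SD 0.781). CCNF was well above background on only 23 of the 39 arrays, and its lowest value was 1.84 (T12.1). Its range and SD are therefore not set against those of the D cyclins. The D cyclins ranged over 2.44 for CCND1 (SD 0.598), 2.44 for CCND2 (SD 0.57) and 2.90 for CCND3 probe 1 (SD 0.543). In CCND3 the tumor T117.2 stood at the top with 12.25, whereas the median was 10.35.

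Within these 39 tumors, which were taken alone so that the classes could not make a relation, the mitotic cyclins rose and fell together. All 6 pairs among CCNA2, CCNB2, CCNB3 and CCNF were positively correlated, with Pearson r from 0.69 to 0.94. For CCNA2 and CCNB2, r was 0.94 and Spearman's rho 0.95, each with a permutation p of 1e-05, the smallest that 100000 permutations can give, and an adjusted p of 4e-05 over the 36 pairs of cyclins. For CCNA2 and CCNB3, r was 0.90 and rho 0.90, with the same permutation p and adjusted p. Without the 2 tumors farthest from the median of CCNA2 these were 0.93 and 0.89, and with the mean of each scan session removed they were 0.97 and 0.91. The tumors with much CCNA2 were thus also those with much CCNB2 and CCNB3.

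The E cyclins ran with the mitotic cyclins. Of the 8 pairs of an E cyclin and a mitotic cyclin 7 passed an adjusted permutation p of 0.05, all of them positive, the exception being CCNE1 with CCNF (r = 0.21, rho = 0.26, permutation p = 0.20 and 0.105, adjusted p = 0.36 and 0.199). CCNE2 followed CCNA2 with r = 0.74 and rho = 0.70 (permutation p = 1e-05, adjusted p = 4e-05 for both), and r was 0.69 without the 2 farthest tumors. CCNE1 followed CCNA2 with r = 0.50 and rho = 0.53 (permutation p = 0.00122 and 0.00068, adjusted p = 0.00314 and 0.00204), and r was 0.53 without the 2 farthest tumors. The E cyclins correlated with each other at r = 0.55 and rho = 0.57 (permutation p = 0.00032 and 0.00031, adjusted p = 0.00105 and 0.00101), and at r = 0.52 without the 2 farthest tumors.

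For the D cyclins no relation to the mitotic cyclins could be shown. The 12 pairs had r between -0.12 and 0.25, with a median of 0.09, and 0 of 12 passed the adjusted permutation test. For CCND1 and CCNB2, r was 0.08 and rho -0.01 (permutation p = 0.635 and 0.973, adjusted p = 0.798 and 0.973), and r was 0.05 without the 2 tumors farthest from the median of CCNB2. The 6 pairs of a D and an E cyclin had r between -0.31 and 0.07, and 0 of 6 passed.

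Instead, the D cyclins were tied to each other, and in opposite ways. CCND2 and CCND3 rose together (r = 0.53, rho = 0.50, permutation p = 0.00045 and 0.00152, adjusted p = 0.00135 and 0.00365). CCND1 and CCND3 ran against each other (r = -0.51, rho = -0.51, permutation p = 0.00082 and 0.00117, adjusted p = 0.00227 and 0.00324). Without the 2 farthest tumors these were 0.47 and -0.49, and with session means removed 0.50 and -0.62. CCND1 and CCND2 had r = -0.15 and rho = -0.20 (permutation p = 0.372 and 0.22, adjusted p = 0.609 and 0.359). In the 11 undifferentiated tumors, where the values are given as a description, r was 0.57 for CCNA2 with CCNB2, 0.72 for CCNA2 with CCNB3, -0.25 for CCND1 with CCND3 and -0.13 for CCND2 with CCND3. Other mitotic pairs were lower there, down to -0.18 for CCNB3 with CCNF. The 8 pairs of an E and a mitotic cyclin had r from -0.71 to 0.19, median 0.004. The 12 pairs of a D and a mitotic cyclin ran from -0.70 (CCND1 with CCNF) to 0.67 (CCND3 with CCNF).

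**Figure D3:**
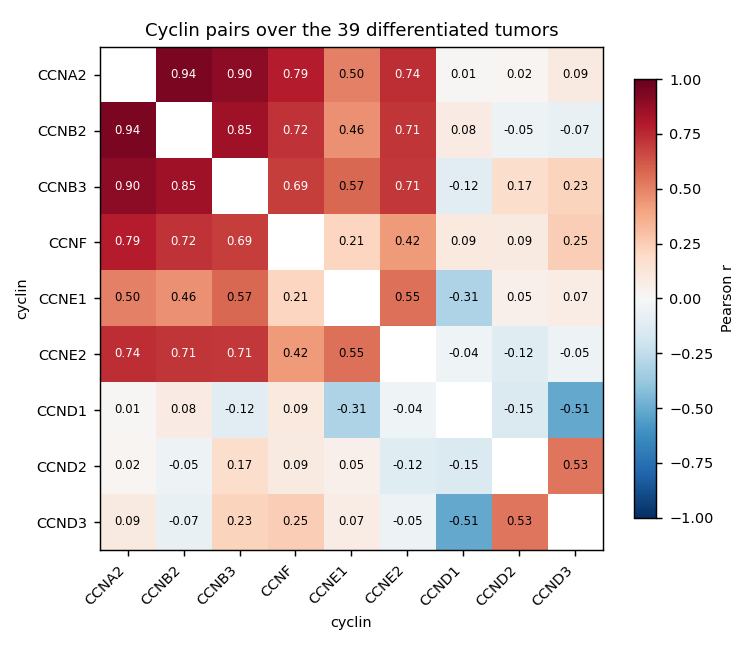
Pearson r of each pair of cyclins over the 39 differentiated tumors (brightest probes; red positive, blue negative). The block of CCNA2, CCNB2, CCNB3 and CCNF has r from 0.69 to 0.94, the D cyclins have r from -0.12 to 0.25 with that block, and CCND3 has 0.53 with CCND2 and -0.51 with CCND1.

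**Figure D4:**
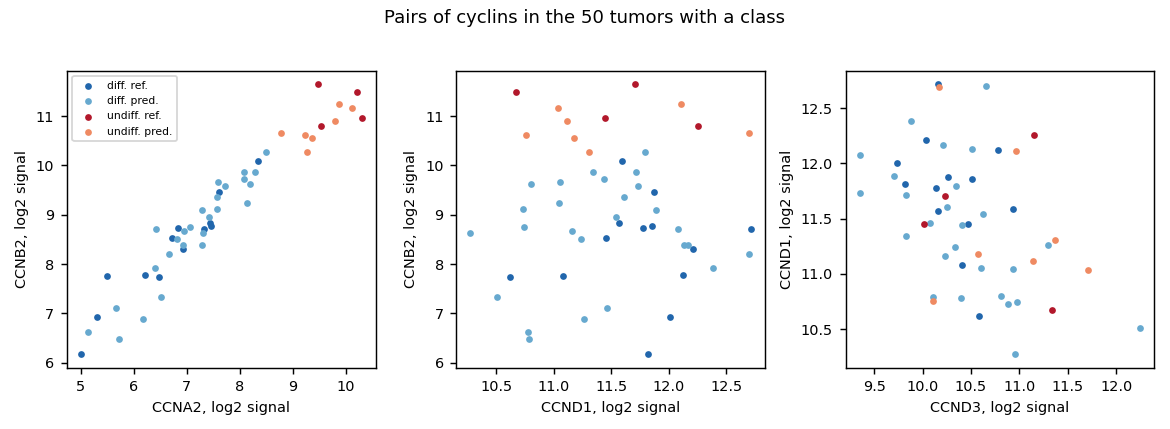
Levels (log2 signal on both axes) of CCNB2 against CCNA2, of CCNB2 against CCND1 and of CCND1 against CCND3 in the 50 tumors with a class, 1 point per tumor; r over the 39 differentiated tumors (blue) is 0.94, 0.08 and -0.51. The undifferentiated tumors (red and orange) lie at the top right of the first panel and are spread along the CCND1 axis in the second.

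The genes whose levels followed a cyclin most closely over the 39 differentiated tumors were looked up among 9571 other gene symbols, as a description. For CCNB2 these were CDC20 (r = 0.97), the mitotic activator of the ubiquitin ligase that destroys B cyclins, NUF2 (0.97), a part of the kinetochore, and CDC2 (0.96), the older name of CDK1, the kinase that CCNB2 activates. For CCND1 they were NIBAN1 (0.78), the adhesion receptor CD44 (0.72) and the transcription factor NFATC1 (0.71). For CCND3 they were FGD4 (0.82), GLIPR1 (0.82) and the leukocyte receptor CD244 (0.80), and for CCND2 they were ACIN1 (0.66), SUV420H1 (0.66) and MIA3 (0.64). With only 3 genes named for each cyclin, nothing was read from the genes that these lists share or do not share.

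The kinases, inhibitors and transcription factors around the cyclins were described from lists. Of the 5 cell cycle kinases measured, CDC2 was called higher in undifferentiated reference MCTs, with a mean level of 10.84 ± 0.31 (SD, n = 4) against 7.74 ± 0.92 (SD, n = 13) and a log2 fold change of 3.10 (SE 0.458, limma adjusted p = 0.00127). In the predicted samples its log2 fold change was 2.28 (SE 0.325, limma adjusted p = 5.81e-05). The panel that made the predicted classes held CCNB2, and CDC2 ran with CCNB2 at r = 0.96 over the 39 differentiated tumors. The p-values of the predicted samples, for CDC2 and for the lists and markers below, are therefore not independent evidence. CDK4, a partner of the D cyclins, had 0.31 (limma adjusted p = 0.313) in the reference samples and 0.25 (adjusted p = 0.348) in the predicted ones. CDK6, the other partner, had 1.25 (limma adjusted p = 0.048) with an SD of 1.19 among the 4 undifferentiated tumors, and 0.11 (adjusted p = 0.878) in the predicted samples. CDK2 had 0.70 (limma adjusted p = 0.0961) and 0.69 (adjusted p = 0.00768), under a fold of 2 in both.

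Of the 7 CDK inhibitors and inhibitory kinases measured, PKMYT1 alone was called, higher in undifferentiated MCTs, with a log2 fold change of 1.59 (SE 0.20, limma adjusted p = 0.000371) in the reference samples and 1.31 (SE 0.197, limma adjusted p = 0.000105) in the predicted ones. PKMYT1 is the kinase that holds CDK1 inactive. CDKN1B, the inhibitor p27, had -0.38 (limma adjusted p = 0.301) and -0.43 (adjusted p = 0.0206). Of the 8 members of the RB and E2F families measured, E2F8 was called in the reference samples with 2.73 (SE 0.438, limma adjusted p = 0.00201), and E2F8 with 2.27 (adjusted p = 0.000269) and E2F1 with 1.34 (adjusted p = 0.000608) in the predicted ones. E2F1 activates the genes of S phase entry, the E cyclins among them.

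The remaining lists had no called member. Among 15 genes of cyclin degradation the median log2 fold change was 0.18 in the reference and -0.04 in the predicted samples, and among 3 CDK activators it was 0.09 and 0.49. Among 13 further genes listed as other cyclins, of which CCNDBP1 is a protein that binds D cyclins and no cyclin itself, it was 0.07 and -0.07. Their values ran from -0.27 to 1.70 in the reference samples and from -1.06 (CCNDBP1, limma adjusted p = 0.0622) to 0.60 in the predicted ones. The highest value in the reference samples was that of CCNA1, the A cyclin of germ cells, which was well above background on 3 of 4 undifferentiated and 2 of 13 differentiated reference arrays (limma adjusted p = 0.142). Over all 11461 gene symbols the median was 0.02 in the reference and -0.01 in the predicted samples.

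Markers of cell types were compared between the classes as well. Of 4 eosinophil and neutrophil markers measured, 3 were called higher in the undifferentiated predicted samples, S100A8 and S100A9, which are abundant in neutrophils, and CSF3R. The other marker, CCR3, had a log2 fold change of -0.76 there (limma adjusted p = 0.60). The summed level of a list is the log2 of the sum of its markers' signals, so that its brightest markers weigh most. For the 4 markers it was 12.17 to 18.55, median 17.43, in these 7 tumors. It was 10.06 to 18.06, median 12.19, in the 26 differentiated ones. In the reference samples it was 11.46 to 18.02, median 17.93, against 9.36 to 16.34, median 11.81, and 0 of the 4 passed in limma (S100A8 adjusted p = 0.0772). Of 5 keratinocyte markers 0 passed in either comparison, and their summed levels overlapped widely, at 7.24 to 17.87, median 12.25, in undifferentiated and 5.83 to 18.87, median 17.34, in differentiated reference samples, and at 7.15 to 19.40, median 17.91, and 5.56 to 19.22, median 13.38, in the predicted ones. Of 7 macrophage markers CD14 was called in the predicted samples (log2 fold change 1.70, limma adjusted p = 0.000342), and of 8 mast cell markers SRGN, the proteoglycan core of secretory granules, was called in the reference samples (1.27, limma adjusted p = 0.00242), both higher in undifferentiated MCTs. Of the macrophage markers 5 had a value below 0 in each comparison. Of the mast cell markers 2 had a value below 0 in the reference and 7 in the predicted samples. Of 9 fibroblast markers 8 had a value below 0 in the reference and 2 in the predicted samples, and 0 were called. No endothelial, T cell or B cell marker was called. The summed mast cell markers had medians of 19.05 and 18.41 in the reference and 18.25 and 18.57 in the predicted samples. The part of these cells in the cyclin differences was not tested.

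Within the 39 differentiated tumors the cyclins were set against the summed level of 8 marker lists, 72 relations in all, chosen after the data had been seen. By the adjusted permutation p of Pearson's r, 18 of the 72 passed, 12 positive and 6 negative. Keratinocyte markers passed with 5 cyclins (CCNA2, CCNB2, CCNB3, CCNE1 and CCNE2) and eosinophil and neutrophil markers with 4 (CCNA2, CCNB2, CCNB3 and CCNE1), all positive. T cell markers passed with 4 cyclins, positive with CCNA2, CCNB3 and CCND3 and negative with CCND1. Mast cell markers passed with CCNE1 and CCND3, macrophage markers with CCNE1 and CCNE2 and B cell markers with CCND1, all negative, and fibroblast and endothelial markers passed with none. By the adjusted permutation p of rho, keratinocyte markers did not pass with CCNA2 (0.0831), CCNB3 (0.0807) or CCNE2 (0.0603). Nor did T cell markers with CCNA2 (0.0807) or CCNB3 (0.0587), or mast cell markers with CCND3 (0.126). How many genes outside the cyclins pass against these lists was not counted. CCND1 and CCND3 parted again at the T cell markers, with r = -0.50 for CCND1 (rho = -0.52, permutation p = 0.00126 and 0.00112, adjusted p = 0.013 and 0.0115) and r = 0.54 for CCND3 (rho = 0.56, permutation p = 0.00041 and 0.00028, adjusted p = 0.00738 and 0.00403). Without the 2 farthest tumors these were -0.56 and 0.51. CCNE1 followed the eosinophil and neutrophil markers with r = 0.65 (rho = 0.64, permutation p = 1e-05 and 5e-05, adjusted p = 0.00072 and 0.00168), against r = -0.55 with the mast cell markers (rho = -0.60, permutation p = 0.00025 and 7e-05, adjusted p = 0.00738 and 0.00168). Without the 2 farthest tumors these were 0.60 and -0.56. In the 26 differentiated predicted tumors the mean levels were 11.07 for S100A8, 10.64 for S100A9, 10.09 for CCR3 and 5.68 for CSF3R. CSF3R thus weighed least in the summed level. Which of these 4 markers carried the relation to CCNE1 was not tested. CCNB2 followed the keratinocyte markers with r = 0.53 (rho = 0.49, permutation p = 0.00052 and 0.00166, adjusted p = 0.00749 and 0.0149), and r was 0.49 without the 2 farthest tumors. CCNE2 ran against the macrophage markers with r = -0.54 (rho = -0.57, permutation p = 0.00038 and 0.0002, adjusted p = 0.00738 and 0.0036), and r was -0.52 without the 2 farthest tumors. The tumors share arrays, slides and tissue makeup across these lists, and whether the cells behind a list carried the cyclin RNA was not tested.

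**Figure D5:**
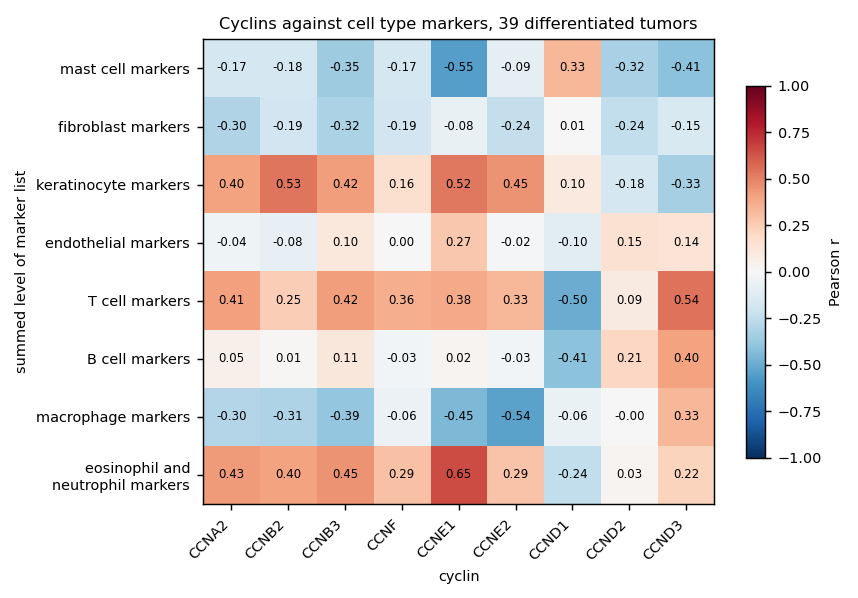
Pearson r between the level of each cyclin (columns) and the summed level of each cell type marker list (rows, log2 of the summed signals of its markers) over the 39 differentiated tumors. T cell markers have r = 0.54 with CCND3 and -0.50 with CCND1, and the eosinophil and neutrophil markers have r = 0.65 with CCNE1.

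Arrays were scanned in 9 sessions, and the classes were not spread evenly over them. In the 4 sessions that held both classes of reference samples, the undifferentiated tumor exceeded the mean of the differentiated ones by 2.54 to 4.80 for CCNA2, 3.20 to 3.46 for CCNB2 probe 1, 2.71 to 4.20 for CCNB3, 1.05 to 2.66 for CCNE1 probe 1, 1.71 to 4.82 for CCNE2 and 1.18 to 3.52 for CCNF. CCND1 ran from -1.11 to 0.94, CCND2 from -2.11 to 0.47 and CCND3 probe 1 from -0.40 to 0.99 in the same sessions. In the 4 sessions with both classes of predicted samples, the differences were 2.04 to 2.80 for CCNA2, 1.16 to 2.68 for CCNB3, 1.63 to 2.03 for CCNF, 0.64 to 1.17 for CCNE1 probe 1 and 0.92 to 1.53 for CCNE2, while CCND1 ran from -0.19 to 0.72. Inside sessions the 6 cyclins of the later phases were thus higher in every case, and the D cyclins went both ways. With session as a fixed block, 5 cyclin probes were called in the reference and 2 in the predicted samples, with CCNE2 at a limma adjusted p of 0.0273 and 0.0726 and, in the predicted samples, CCNB3 at 0.0131 and CCNE1 probe 1 at 0.083.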

How the data were processed

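Total RNA of 51 canine cutaneous MCTs was profiled on Agilent 4x44k canine arrays. Per the file headers the scans were extracted with Agilent Feature Extraction 9.5.1, and the authors deposited for each array a processed intensity with the background subtracted, not scaled between arrays. They also deposited a table of quantile-normalized intensities, used here as an alternative. No genome build is named in the sources used here.

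With R 4.3.3, limma 3.58.1 and statmod 1.5.0, quantile normalization was applied across arrays to log2 of the deposited intensities, outlier spots (2 to 35 per array) were set to missing, controls were dropped and spots of a probe were averaged, giving 43603 probes. The arrays came from 15 slides and 9 scan sessions. No 2 arrays held the same values (r from 0.907 to 0.988). Of 3211 names of the form LOC on the array, 2519 were updated to current symbols through a RefSeq table.

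Classes were compared with limma over all probes with Benjamini-Hochberg adjustment, and correlations with 100000 two-sided permutations (numpy 2.4.6, scipy 1.17.1, Python 3.11.15), adjusted over all pairs. Figures were drawn with matplotlib 3.10.9. CCNB2 was not tested in the predicted samples. Named genes were all cyclins, the kinases CDC2, CDK2, CDK4 and CDK6, up to 4 called genes per list and the 3 nearest genes of each D cyclin and of CCNB2. On data simulated with the sizes of the reference classes, limma recovered 89% of 100 probes changed by 3 on the log2 scale and 52% of 100 changed by 1.5, with 1 false call, and for the predicted classes 96% and 72%, with 2 false calls. The members and lists were chosen with earlier results of these data known. LM0, which matched no class, was left out of every comparison.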

Additional observations from a re-analysis of the deposited data

Results flagged for a closer look

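LM0, the tumor without a class, lay above all 39 differentiated tumors in 8 of the 13 cyclin probes, in an array that no comparison used. The share of all array probes for which LM0 lay that high was not counted, so the 8 are a description. CCNA2 was at 10.764, the CCNB2 probes at 11.668, 9.952 and 8.449, CCNB3 at 9.989, the CCNE1 probes at 9.716 and 7.982, and CCNF at 7.392. For CCNA2, CCNB2 probe 1, CCNB3, CCNE1 probe 2 and CCNF it also lay above the highest of the 11 undifferentiated tumors, which were 10.30, 11.64, 8.85, 7.74 and 7.12. The study names a further undifferentiated reference sample that matched no label by name, and by elimination LM0 is the tumor left for it, which the labels do not settle. Of its spots 62.25% were well above background, below the median of 68.74% over the 51 arrays but within the range of the other arrays.

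CCNB3 in T9.1, at 8.846, stood apart from the other 3 undifferentiated reference tumors, which lay between 8.27 and 8.32. Of 26 sets of 4 or 7 values tested in this way, 1 held such a value, and chance alone marks about 1 in 20.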

How the results depend on the processing

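The direction of the log2 fold changes of CCNA2, CCNB2, CCNB3, CCNF, CCNE1 and CCNE2 was kept under every alternative run, from 2.06 to 3.55 for CCNA2 and from 1.57 to 3.23 for CCNB3 in the reference samples, and CCNA2 was called in every setting of both comparisons. The following counts of called probes moved. With normexp correction, which adds 50 to each intensity and so shrinks the folds of dim probes, 304 probes were called in the reference samples, and 220 probes, 1 of them a cyclin, in the predicted samples, where the log2 fold change of CCNF was 0.54. With session as a fixed block 345 probes (5 cyclin probes) and 170 probes (2 cyclin probes) were called; the cause was not tested. Without a fold limit at an adjusted p under 0.05 there were 2545 and 2556, and with the methods' t-test 402 and 391 after Benjamini-Hochberg adjustment (5 cyclin probes in each) and 1757 and 1068 at the same unadjusted p, an alternative added after seeing the data. With sex as a covariate 3 cyclin probes were called in the predicted samples. Without each of the 4 undifferentiated reference tumors (T9.1, T57.1, T73, T90) 293, 847, 354 and 400 probes were called, and 2, 6, 3 and 2 cyclin probes. The difference between both comparisons had 4 called probes, 1 with scaling to the 75th percentile and 14 in the authors' table, none of them a cyclin. In that table blanks left 9 of the differences between D and other cyclins for a test in each comparison, and all 9 had an exact p under 0.05. The 16 called cyclin pairs stayed 16 in each alternative. CCND1 and CCND2, not called in any setting, changed sign in some. The dimmest cyclin, CCNF, is limited by its signal over background. No paired analysis was possible because the replicate numbers only follow the accession order.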

Other observations

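In LM0 the other cyclins were not high. CCNE2 was at 6.27, close to the median of the 39 differentiated tumors (6.25), while both CCNE1 probes stood above all of them. CCND1, at 10.56, was below 37 of the 39 differentiated tumors, and CCND2 (11.16) and CCND3 probe 1 (10.23) lay among them.

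CCNE2 and CCNF had opposite extremes in single undifferentiated tumors. T9.1 had the highest CCNE2 of the 50 tumors with a class (9.56) but the lowest CCNF of the 4 undifferentiated reference tumors (4.86), and T57.1 had the highest CCNF (7.12) and the lowest CCNE2 (7.37) among these 4. Over the 11 undifferentiated tumors CCNE2 and CCNF had r = -0.71, whereas over the 39 differentiated ones they had r = 0.42 (rho = 0.42, permutation p = 0.00721 and 0.00881, adjusted p = 0.0162 and 0.0198, and r = 0.41 without the 2 tumors farthest from the median of CCNF). The difference between these relations was not tested.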
